A study of Homo sapiens with 4 samples.

Results

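Complement is a set of plasma and membrane proteins that tag and lyse foreign or damaged cells, and 9 of its genes were followed here in RCC4 cells with and without knockdown of PML. The genes were taken by name: 4 encode components that activate the cascade (C1R, C1S, C3 and CFB) and 5 encode inhibitors of it (CFI, SERPING1, CD55, CD46 and CD59). They are 9 of the 59050 genes counted, and all 9 were among the 16516 genes tested. RCC4 is an established human line of clear cell renal cell carcinoma (ccRCC), and RNA-seq libraries were made from it in 2 experiments, each with its own lentiviral infection. Paired by replicate number, each experiment gave 1 library from shCtrl cells, which express a scrambled hairpin, and 1 from shPML cells. The latter express a hairpin against PML (shPML#1, the single PML hairpin that was sequenced). Both kinds of cells were infected populations that carry the hairpin behind a doxycycline-inducible promoter. Both were grown in DMEM with tetracycline-free serum and both received 100 ng/ml doxycycline for 96 h, so the control shares the drug, the virus and the induction. The design asks which transcripts differ after PML, the scaffold protein of PML nuclear bodies, is depleted, and with 2 libraries a group every mean below has n = 2.

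Complement can be started through the classical pathway, in which C1q binds a target and the serine proteases C1r and C1s become active in turn. All routes meet at C3, whose cleavage labels surfaces and feeds an amplification loop through factor B, the product of CFB. Host cells are protected by plasma inhibitors, such as C1 inhibitor and factor I, and by proteins on their own membrane, such as CD55, CD46 and CD59. Most plasma complement is made in the liver, but kidney epithelium and many tumor cells also transcribe complement genes.

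Between 27781193 and 69870617 reads were counted per library, with the smallest total in shPML replicate 2 and the largest in shPML replicate 1. PML stood at 93.1 and 136 CPM (reads scaled to library size with edgeR's TMM factors) in shCtrl replicates 1 and 2, and at 54.9 and 87.6 CPM in shPML. It was lower in shPML by 0.70 on the log2 scale (SE 0.11, adjusted p = 4.19e-07 in edgeR's quasi-likelihood test with the experiment as a block). Without the block the adjusted p of PML was 0.32. RCC4 cells held all 7 markers of renal carcinoma epithelium (PAX8, PAX2, CA9, NDUFA4L2, KRT8, KRT18 and VIM) in every library, with a summed level of 4536 to 7837 CPM. One library stood apart: shPML replicate 2 held 346 reads of PTPRC, 1177 of CD14 and 731 of CSF1R, markers of blood leukocytes and of monocytes and macrophages. PTPRC had 0, 0 and 7 reads and CD14 had 2, 4 and 3 reads in shCtrl replicates 1 and 2 and shPML replicate 1. CD68, a further leukocyte marker of the list, had 0, 2 and 1 reads in those libraries and 0 in shPML replicate 2. Of the 7 leukocyte markers, 2 to 4 were at 0 in each library, CD3E in all 4, and 6 of them without LCP1 summed to 1.13 and 1.36 CPM in shCtrl and to 0.307 and 82.0 CPM in shPML replicates 1 and 2. Markers of endothelium (3 genes) summed to 0.148 and 0.389 CPM in shCtrl and to 0.181 and 4.36 CPM in shPML. In shPML replicate 2 that sum was mostly PECAM1 (113 reads), with 0 reads of CDH5 and 7 of VWF. Markers of fibroblasts (4 genes) summed to 11.6 to 25.8 CPM, with DCN and LUM at 0. LCP1 itself was abundant in every library, at 411 to 1101 CPM. For this reason each result is also given within replicate 1, whose shPML library did not hold that signal.

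The promoters of the members are shown first, as a description of sequence only. Although 3 activating genes and no inhibitor were called different between the groups, C1R was the only called gene with a promoter sequence here. RefSeq windows on GRCh38.p14, each from 250 bases before to 50 bases after a transcript start, were matched to 6 of the 9 members, in 11 windows of 300 bases (all but C1S, C3 and SERPING1). They were searched on both strands for sites of factors that are known to act on complement genes. These were the core of the interferon-stimulated response element (ISRE, written GAAA, any 2 bases, GAAA), the gamma-activated sequence (GAS, TTCNNNGAA), the NF-kB consensus, and the C/EBP site (TTNNGNAA). Capitals mark the matches, and overlapping matches would share capitals. Windows of the inhibitors CFI and CD59 also held matches and are not printed. The 4 windows printed are those of C1R, which has 2 annotated starts, of CFB, whose window held the most kinds of match, and of CD55, an inhibitor with no match. All are written 5′ to 3′ on the gene's own strand.
C1R, chr12:7092396-7092695, minus strand: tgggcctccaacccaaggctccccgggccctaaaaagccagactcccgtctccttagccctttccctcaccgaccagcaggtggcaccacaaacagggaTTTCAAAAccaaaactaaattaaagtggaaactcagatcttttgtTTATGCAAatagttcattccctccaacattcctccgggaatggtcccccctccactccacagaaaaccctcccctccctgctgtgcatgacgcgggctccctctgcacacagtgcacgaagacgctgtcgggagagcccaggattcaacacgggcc
C1R, chr12:7091844-7092143, minus strand: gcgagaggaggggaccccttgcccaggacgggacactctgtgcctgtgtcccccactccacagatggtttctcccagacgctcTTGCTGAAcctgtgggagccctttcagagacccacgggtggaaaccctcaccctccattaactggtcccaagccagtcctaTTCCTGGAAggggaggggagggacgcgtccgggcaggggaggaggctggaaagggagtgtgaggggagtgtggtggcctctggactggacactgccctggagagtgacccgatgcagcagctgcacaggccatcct
CFB, chr6:31945845-31946144, plus strand: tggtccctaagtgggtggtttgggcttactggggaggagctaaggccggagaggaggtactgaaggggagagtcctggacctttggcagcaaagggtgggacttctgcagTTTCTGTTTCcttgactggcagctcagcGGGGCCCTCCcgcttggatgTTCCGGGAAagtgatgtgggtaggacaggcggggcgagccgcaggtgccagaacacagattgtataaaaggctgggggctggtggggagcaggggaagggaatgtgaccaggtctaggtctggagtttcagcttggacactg
CD55, chr1:207321428-207321727, plus strand: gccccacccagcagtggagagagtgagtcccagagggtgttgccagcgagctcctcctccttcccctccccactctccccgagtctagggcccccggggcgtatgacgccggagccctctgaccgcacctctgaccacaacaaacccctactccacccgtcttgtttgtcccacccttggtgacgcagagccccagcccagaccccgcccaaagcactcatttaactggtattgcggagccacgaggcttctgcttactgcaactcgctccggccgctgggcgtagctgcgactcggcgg

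In the outer C1R window both matches were C/EBP sites, and they began at positions -151 and -106 relative to the start. The inner C1R window held 1 C/EBP match and 1 GAS match, the latter beginning at -86. The CFB window held an ISRE match at -140, an NF-kB match at -112 and a GAS match at -92. CFI had 2 C/EBP matches in its only window, and 3 of the 4 CD59 windows held a GAS or C/EBP match. Neither window of CD46 held one. Over all 35116 promoter windows of the same length, 3.57% held an ISRE match, 7.66% a GAS match, 11.3% an NF-kB match and 36.8% a C/EBP match, so a C/EBP match was common. Such a match describes letters only. Among the 14 factors tested of a list with STAT, IRF, NF-kB and C/EBP members, 3 were higher in shPML, NFKB2 and CEBPB among them, beside 8.57% of all genes tested. Of the 14, 1 was lower (CEBPA), beside 10.5%, and 10 were not called. The factors named were chosen after their values were seen. NFKB2, a subunit of NF-kB, stood at 127 and 139.8 CPM in shCtrl and at 203 and 258 CPM in shPML. CEBPA, a C/EBP factor of differentiated epithelium and myeloid cells, stood at 9.61 and 11.4 CPM in shCtrl and at 2.97 and 5.06 CPM in shPML. The median log2 fold change of the 14 was 0.11, beside 0.00 over all genes tested. None was called in edgeR without the experiment as a block, whereas DESeq2 without it called 2 higher and 1 lower.

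Transcripts of 3 activating components, C1R, C1S and C3, were more abundant in shPML than in shCtrl, by 1.75- to 2.44-fold, whereas no inhibitor was called in either direction. Calls needed an adjusted p (Benjamini-Hochberg, all genes tested) below 0.05 together with a log2 fold change larger than 0.5 in size, in edgeR's quasi-likelihood test with the experiment as a block. By this rule 3 of the 9 members were higher in shPML, beside 8.57% of all genes tested, and 0 were lower, beside 10.5%. DESeq2 with the same block also called 3 members higher. The block decided these calls in edgeR. Without it 0 members were called in either direction, beside 0.412% of all genes. In that fit 4 members had an unadjusted p under 0.05, as did 2958 of all genes, and no gene had an adjusted p below 0.048. An exact permutation test of 2 libraries against 2 cannot give a two-sided p under 0.33, so none was used for single genes.

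**Figure D1:**
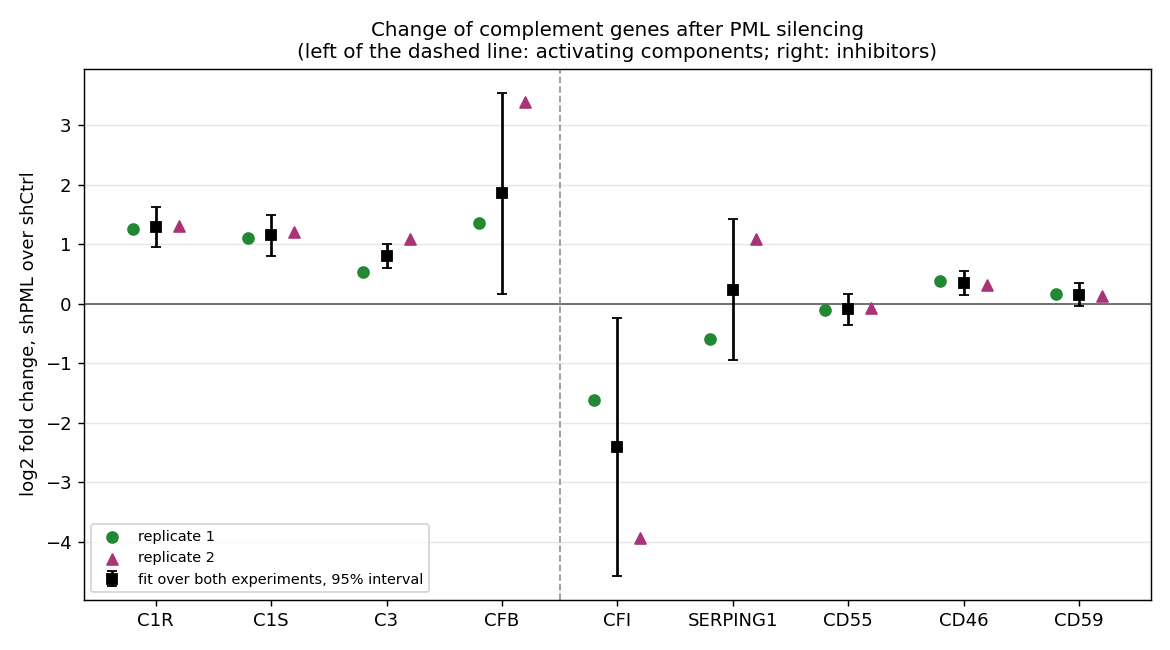
Log2 fold change of each complement gene in shPML over shCtrl, with the edgeR estimate and its 95% interval (fit with the experiment as a block) and the log2 ratio within replicate 1 and within replicate 2 as separate points. C1R, C1S and C3 lie above 0 in both replicates, CD55, CD46 and CD59 lie near 0, and the intervals of CFB, CFI and SERPING1 are the widest.

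C1R encodes the protease that is the first to become active in the C1 complex and that cleaves C1s. It had 345 and 229 reads in shCtrl replicates 1 and 2 and 1095 and 434 reads in shPML. Scaled for depth these were 6.37 and 6.36 CPM in shCtrl against 15.3 and 15.8 CPM in shPML. The libraries of each group nearly coincided, and both shPML libraries lay far above both shCtrl libraries. The ratio of shPML to shCtrl was 2.40 in replicate 1 (95% counting interval 2.12 to 2.71) and 2.48 in replicate 2 (2.11 to 2.93). Counting intervals cover the sampling of reads only, not the variation between cultures. The fitted log2 fold change of C1R was 1.28 (SE 0.17, 95% interval 0.94 to 1.63, adjusted p = 9.64e-09), the 632nd highest of all genes tested. The adjusted p of C1R was 2.11e-06 in DESeq2 with the block and 0.0618 in edgeR without it. The gene lies on the minus strand of chr12:7080219-7092472 (GRCh38), and its 12 merged exons span 2635 bases.

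C1S encodes the partner protease, which C1r activates and which then cleaves C4 and C2. It had 428 and 196 reads in shCtrl and 1220 and 343 in shPML, or 7.91 and 5.44 CPM against 17.0 and 12.5 CPM. Replicate 1 was the higher one within each group, and the lowest shPML library still lay above the highest shCtrl library. The ratio was 2.15 in replicate 1 (1.93 to 2.41) and 2.29 in replicate 2 (1.92 to 2.74), so it differed little between the experiments. The fitted log2 fold change of C1S was 1.15 (SE 0.17, 95% interval 0.80 to 1.49, adjusted p = 1.85e-07), with an adjusted p of 3.68e-05 in DESeq2 with the block and 0.132 in edgeR without it. C1S lies on the plus strand at chr12:6988259-7071032, and its end is 9186 bases from the end of C1R, so the 2 genes face each other tail to tail. C1RL, a related protease gene with 1234 bases between it and C1R, was not called. It stood at 36.4 and 38.4 CPM in shCtrl and 27.4 and 35.9 CPM in shPML (log2 fold change -0.26, adjusted p = 0.11).

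C3, the protein on which all complement pathways converge, was the most abundant member in every group. Its reads numbered 25115 and 11150 in shCtrl and 47878 and 18128 in shPML, which scaled to 464 and 310 CPM in shCtrl and to 668 and 659 CPM in shPML. The shPML libraries lay close together, and the experiments differed mainly in the control. The ratio was therefore smaller in replicate 1, at 1.44 (1.42 to 1.46), than in replicate 2, at 2.13 (2.08 to 2.18), and those counting intervals do not overlap. The fitted log2 fold change of C3 was 0.81 (SE 0.10, 95% interval 0.60 to 1.01, adjusted p = 2.10e-09). It was 8.92e-09 as an adjusted p in DESeq2 with the block and 0.176 in edgeR without it. Leaving out shCtrl replicate 2 from the fit without the block brought the log2 fold change of C3 to 0.51. Ranked by TPM, which also divides by exonic length, C3 stood 788th of all genes in shCtrl and 378th in shPML. The gene lies on the minus strand of chr19:6677704-6720682. C3 is also a liver gene, and 4 hepatocyte markers (ALB, APOA1, FGB and SERPINA1) summed to 13.8 and 16.1 CPM in shCtrl and to 10.6 and 20.6 CPM in shPML. In replicate 2 those sums were nearly all SERPINA1, at 15.9 CPM in shCtrl and 20.4 CPM in shPML, with 0 and 1 reads of APOA1. ALB had 172 and 271 reads in shCtrl and shPML of replicate 1 and 0 reads in both libraries of replicate 2. The part of ALB in the level of C3 was not tested.

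**Figure D2:**
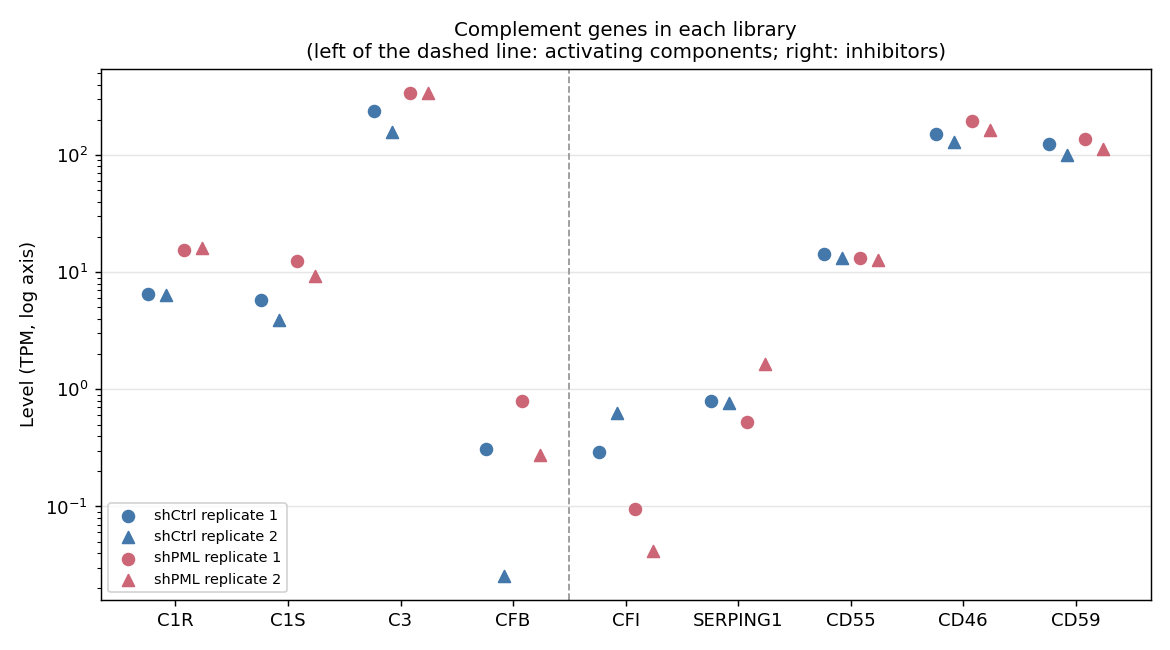
Level of each complement gene in each library, in TPM on a log axis, with the activating components to the left of the dashed line and the inhibitors to the right. C3, CD46 and CD59 lie highest in every library, CD55, C1R and C1S lie between 3.94 and 16.2, and SERPING1, CFI and CFB lie under 2, where they rest on few reads.

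CFB encodes factor B, the protease subunit of the alternative pathway convertase, and was close to the detection limit. It had 18 and 1 reads in shCtrl and 61 and 8 in shPML, or 0.33 and 0.0278 CPM against 0.851 and 0.291 CPM. The ratio pointed up in each experiment, but shCtrl replicate 1 exceeded shPML replicate 2, so the groups overlapped. The ratio of CFB was 2.56 in replicate 1 (1.49 to 4.60) and 10.5 in replicate 2, where the single control read left an interval of 1.40 to 465. Its log2 fold change of 1.85 (SE 0.85, adjusted p = 0.0927) was not called, and DESeq2 gave it no adjusted p. CFB lies at chr6:31945709-31952084, beginning 36 bases after the end of C2, and 78.6% of its exonic bases are shared with AL645922.1, an annotated gene with 0 reads in every library. Reads that fall in both are uncertain for CFB, since the counting could leave them out of both genes.

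Among the inhibitors the plasma proteins were rare transcripts. SERPING1 encodes C1 inhibitor, the serpin that binds and removes C1r and C1s. It had 40 and 26 reads in shCtrl and 35 and 42 in shPML, or 0.739 and 0.722 CPM against 0.488 and 1.53 CPM. The experiments pointed in opposite directions: the ratio was 0.661 in replicate 1 (0.407 to 1.07) and 2.11 in replicate 2 (1.27 to 3.59). The log2 fold change of SERPING1 was 0.23, with a 95% interval of -0.95 to 1.41 (adjusted p = 0.821). Changes in either direction within that interval are compatible with these libraries. Per length, C1R and C1S together outnumbered SERPING1 by 15.4 and 13.4 to 1 in shCtrl and by 53.2 and 15.3 to 1 in shPML. That ratio was high in shPML replicate 1 alone and not in replicate 2, in which SERPING1 was also highest.

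CFI encodes factor I, the plasma protease that cuts C3b and C4b with the help of cofactors such as CD46. It had 14 and 20 reads in shCtrl and 6 and 1 in shPML, or 0.259 and 0.556 CPM against 0.0837 and 0.0364 CPM. The shCtrl libraries were the higher ones with no overlap, and the ratios were 0.324 (0.102 to 0.896) and 0.0655 (0.00158 to 0.409). CFI passed the filter on low counts through its shCtrl libraries alone, so a difference was built into its being tested. Its log2 fold change of -2.40 (SE 1.08, adjusted p = 0.0875) was not called, and DESeq2 gave it no adjusted p. The gene lies at chr4:109740694-109802179 and shares 66.2% of its exonic bases with AC126283.2, which had 0 reads in every library, so its reads are uncertain in the same way as those of CFB.

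The membrane inhibitors were more abundant and none was called. CD55 (decay-accelerating factor) speeds the breakup of C3 convertases on the cell surface. It stood at 21.3 and 19.9 CPM in shCtrl and at 19.7 and 18.8 CPM in shPML, from 518 to 1409 reads a library. Its shPML libraries lay just below its shCtrl libraries, and its log2 fold change was -0.10 (95% interval -0.36 to 0.17, adjusted p = 0.647). CD46 (membrane cofactor protein) is the cofactor with which factor I cuts C3b on host cells. It stood at 189 and 163 CPM in shCtrl and at 246 and 202 CPM in shPML, so that both shPML libraries lay above both shCtrl libraries. The ratio of CD46 was 1.30 in replicate 1 and 1.24 in replicate 2. Its log2 fold change of 0.34 (SE 0.10, 95% interval 0.15 to 0.54) had an adjusted p of 0.00497 but was smaller than the 0.5 needed for a call, and without the block its adjusted p was 0.395. CD59 (protectin) blocks assembly of the membrane attack complex. It stood at 387 and 318 CPM in shCtrl and at 432 and 349 CPM in shPML, with shPML replicate 2 below shCtrl replicate 1. The log2 fold change of CD59 was 0.15 (95% interval -0.04 to 0.34, adjusted p = 0.262). The intervals of these 3 genes leave room for a change of up to 0.54 on the log2 scale. CD55 and CD46 lie on chromosome 1 with 391090 bases between them, and CD59 lies on chromosome 11, as does SERPING1. CD59 shares 3.79% of its exonic bases with AL049629.2, which had 0 reads.

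Set side by side, the median log2 fold change was 1.22 over the 4 activating genes and 0.15 over the 5 inhibitors, a difference of 1.07. Within replicate 1 the medians were 1.18 and -0.11 (difference 1.30), and within replicate 2 they were 1.25 and 0.13 (difference 1.12). CFI passed the filter through shCtrl alone, so its lower level in shPML was built into the inhibitor medians. For that reason, and because CFB, CFI and SERPING1 rest on few reads, the contrast was also taken over the 3 abundant genes of each role. C1R, C1S and C3 then exceeded CD55, CD46 and CD59 by 1.00 in the fit, by 0.95 in replicate 1 and by 1.06 in replicate 2. In replicate 1 the smallest log2 ratio of an activating gene, that of C3, was 0.53, and the largest of an inhibitor, that of CD46, was 0.38. In replicate 2 the smallest of an activating gene was 1.09, again that of C3, but SERPING1 reached 1.08. A log2 ratio over 0.5 was found for 4 members in replicate 1, all of them activating genes, beside 14.5% of all genes tested. In replicate 2 it was found for 5 members, the same 4 genes and SERPING1, beside 20.2%. Counted by separation, 4 members (C1R, C1S, C3 and CD46) had both shPML libraries above both shCtrl libraries, beside 23.1% of all genes. In 2 members (CFI and CD55) both lay below, beside 24.9%, and for CFI the filter built this in. The 9 genes were chosen with earlier results of these libraries known, so the contrast is a description and carries no p-value.

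On the TPM scale, which divides by exonic length and so allows genes to be compared, the order of levels in shCtrl ran from C3 (196 ± 56.9 TPM, SD) through CD46 (139 ± 15.5) and CD59 (112 ± 16.4) to CD55 (13.8 ± 0.749), C1R (6.45 ± 0.0606) and C1S (4.86 ± 1.31). SERPING1 (0.783 ± 0.0190), CFI (0.459 ± 0.234) and CFB (0.169 ± 0.202) closed it. In shCtrl the means of C3 and CD46, of CD46 and CD59, and of CFI and CFB differed by less than the sum of their SDs. In shPML the levels were 340 ± 1.19 TPM for C3, 179 ± 23.6 for CD46 and 125 ± 18.3 for CD59, so C3 stood clear of its neighbours. C1R (15.9 ± 0.458) moved above CD55 (13.0 ± 0.317), with C1S next at 10.8 ± 2.30. The lower end in shPML held SERPING1 (1.09 ± 0.802), CFB (0.537 ± 0.370) and CFI (0.0684 ± 0.0378), and in this group the neighbours that differed by less than the sum of their SDs were CD55 and C1S, and SERPING1 and CFB.

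C3 per unit of membrane inhibitor (CD55, CD46 and CD59 summed, in TPM) was 0.821 and 0.645 in shCtrl replicates 1 and 2 and 0.981 and 1.18 in shPML. The ratio was thus higher in shPML in each experiment, and the groups did not overlap. C3 made up 43.9% and 38.1% of the summed TPM of the 9 genes in shCtrl and 47.5% and 51.8% in shPML. C1R per C1S behaved otherwise. It was 1.12 and 1.63 in shCtrl and 1.25 and 1.76 in shPML, so it followed the experiment more than the hairpin, and the groups overlapped.

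**Figure D3:**
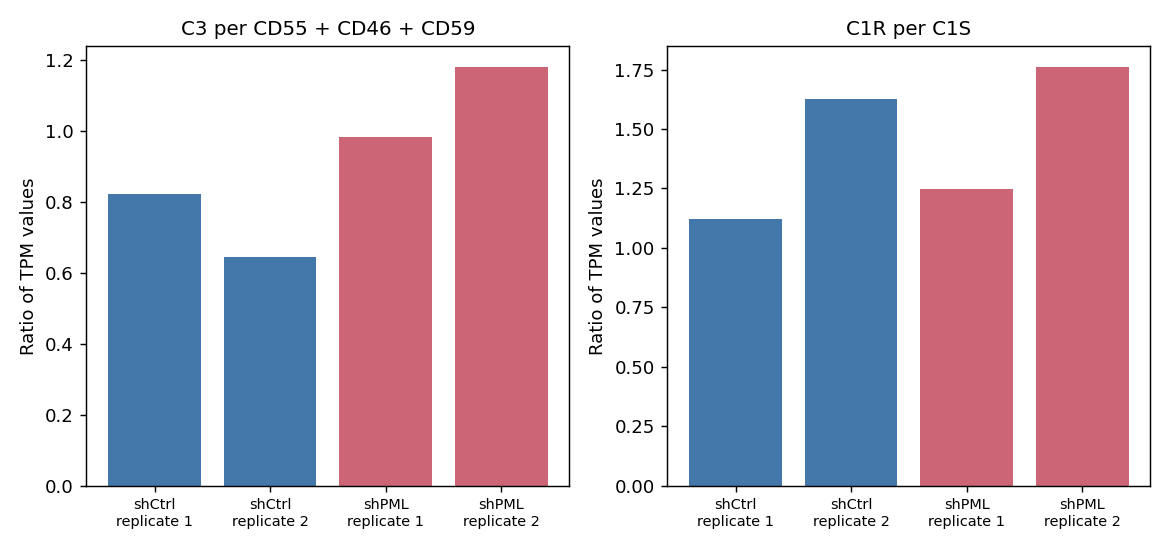
Bars of C3 per summed membrane inhibitors and of C1R per C1S in each library, both as ratios of TPM on an axis that starts at 0. The first ratio runs from 0.645 to 0.821 in shCtrl and from 0.981 to 1.18 in shPML, whereas the second is lowest in the replicate 1 libraries of both groups.

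The 3 called genes shared a direction, but their profiles over the libraries were not the closest ones in the data. Likeness was measured as the Euclidean distance between log2 CPM profiles over the 4 libraries, each centred on its mean, among the 9949 genes with a mean log2 CPM of at least 3. Closest to C1R were C12orf57 (distance 0.0367), VDR (0.0695) and ITGA5 (0.0786). Closest to C1S were IFI16 (0.0718), NICN1 (0.115) and ZNF397 (0.152), and closest to C3 were BDH1 (0.0290), GOLGA7B (0.0831) and TTC28 (0.0927). IFI16, an interferon-inducible DNA sensor, stood at 74.3 and 53.1 CPM in shCtrl and at 159 and 124 CPM in shPML, the same order of libraries as C1S. Ranked over all 16515 other tested genes, C1S was the 373rd closest to C1R and C3 the 601st, with the inhibitor CD46 the 2461st. To C1S, C3 was the 211th closest and C1R the 326th, with CD46 the 1572nd. To C3, C1S was the 726th closest, but CD46, the 1398th, was closer than C1R, the 1935th. Distances over 4 libraries of 2 groups are small for many genes, and they describe a pattern only.

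Beyond the members, 47 further complement genes were listed by role, and all 47 were in the annotation. Of these, 17 were tested, and 30 lacked enough reads in at least 2 libraries, some of them with reads in 1 library alone. Of the 17, 7 were higher in shPML, beside 8.57% of all genes tested, 1 was lower, beside 10.5%, and 9 were not called. CR1, one of the 7, and C4A, which was not called, passed the filter through shPML alone. C4BPB, the lower one, passed it through shCtrl alone. A difference was thus built into the testing of CR1, C4A and C4BPB. With these genes included, the log2 fold changes of the 17 had 0.70 as the median (0.29 in replicate 1 and 0.87 in replicate 2), beside 0.00 over all genes tested. None of the 17 was called in edgeR without the block, whereas DESeq2 without the block called 6 higher and 1 lower. By role, 0 of 3 initiation genes, 0 of 1 gene of the convertases and 0 of 2 genes of the terminal pathway were called. Of 4 plasma regulators 1 was higher and 1 lower, of 2 membrane regulators 1 was higher, and of the receptors all 5 that were tested were higher, from a list of 8.

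CLU encodes clusterin, which binds terminal complement complexes and keeps them from membranes. It was the most abundant of these genes per length, at 57.0 and 48.2 CPM in shCtrl and at 78.1 and 81.7 CPM in shPML. The groups did not overlap, and its log2 fold change was 0.61 (adjusted p = 2.45e-05). C4BPB, a chain of C4b-binding protein, was lower in shPML, with 48 and 53 reads in shCtrl and 8 and 2 in shPML (log2 fold change -3.47, adjusted p = 0.000213). It passed the filter through its shCtrl libraries alone, and DESeq2 gave it no adjusted p. CR1, the C3b receptor that also regulates convertases, had 0 and 0 reads in shCtrl and 16 and 9 in shPML. With 3 counts per library as the floor, CR1 was at least 4.03-fold higher in replicate 1 and at least 3.93-fold higher in replicate 2 (adjusted p = 0.0111, and none from DESeq2). It too passed the filter through the group in which it was higher.

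The receptors were the group in which every tested gene was called, and they were also the genes that moved with the library that stood apart. C3AR1, the receptor of the C3a fragment, had 68 and 18 reads in shCtrl and 229 and 251 in shPML (log2 fold change 2.61, adjusted p = 2.59e-07). C5AR1, the receptor of C5a, had 21 and 18 reads in shCtrl and 69 and 197 in shPML (2.60, adjusted p = 1.55e-05). Both genes encode receptors best known from myeloid cells, and in each the ratio was far larger in replicate 2. The ratio of C3AR1 was 2.54 in replicate 1 (1.93 to 3.38) and 18.3 in replicate 2, and that of C5AR1 was 2.48 (1.504 to 4.26) and 14.3. The integrin chains ITGAM, ITGAX and ITGB2, which form complement receptors 3 and 4, behaved alike. ITGAM had 58 and 45 reads in shCtrl and 172 and 154 in shPML, with ratios of 2.24 and 4.48 (log2 fold change 1.65, adjusted p = 0.000346). ITGAX had 25 and 14 reads in shCtrl and 131 and 534 in shPML, with ratios of 3.96 and 49.9 (3.81, adjusted p = 2.13e-11). ITGB2, the shared beta chain, stood at 15.4 and 7.22 CPM in shCtrl and at 26.8 and 84.2 CPM in shPML, with ratios of 1.75 and 11.7 (2.09, adjusted p = 7.25e-11). DESeq2 with the block gave ITGB2 an adjusted p of 0.155 and so did not call it. In edgeR without the block the adjusted p of the 5 receptor genes ran from 0.134 to 0.196. All 5 were above shCtrl in both experiments, with replicate 1 ratios of 1.75 to 3.96.

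Some other complement genes of myeloid cells were seen almost only in that library. C1QA had 166 reads in shPML replicate 2 and 0, 0 and 2 in shCtrl replicates 1 and 2 and shPML replicate 1. C1QC had 218 reads there and 0, 0 and 2 elsewhere. FCN1, the ficolin of monocytes, had 355 reads there and 1, 0 and 3 elsewhere, and VSIG4, the C3b receptor of tissue macrophages, had 271 there and 1, 2 and 0 elsewhere. None of these genes passed the filter, so they were not tested. C1QA, C1QC, FCN1 and VSIG4 were high in the same library as PTPRC, CD14 and CSF1R. In contrast, C1QB and the leukocyte marker CD68 had 0 reads in shPML replicate 2. The part of other cells in the receptor result was not tested. In bulk RNA, more cells of a type and more RNA per cell cannot be told apart. In replicate 1, where the 6 leukocyte markers summed to 0.307 CPM in shPML, the ratios of C1R, C1S and C3 were 2.40, 2.15 and 1.44. In replicate 2 they were 2.48, 2.29 and 2.13, so that of C3 was larger in the experiment with the leukocyte signal. C3 stood at 464 CPM without and 668 CPM with the PML hairpin in replicate 1, and at 310 and 659 CPM in replicate 2. The part of other cells in the C3 result was not tested.

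**Figure D4:**
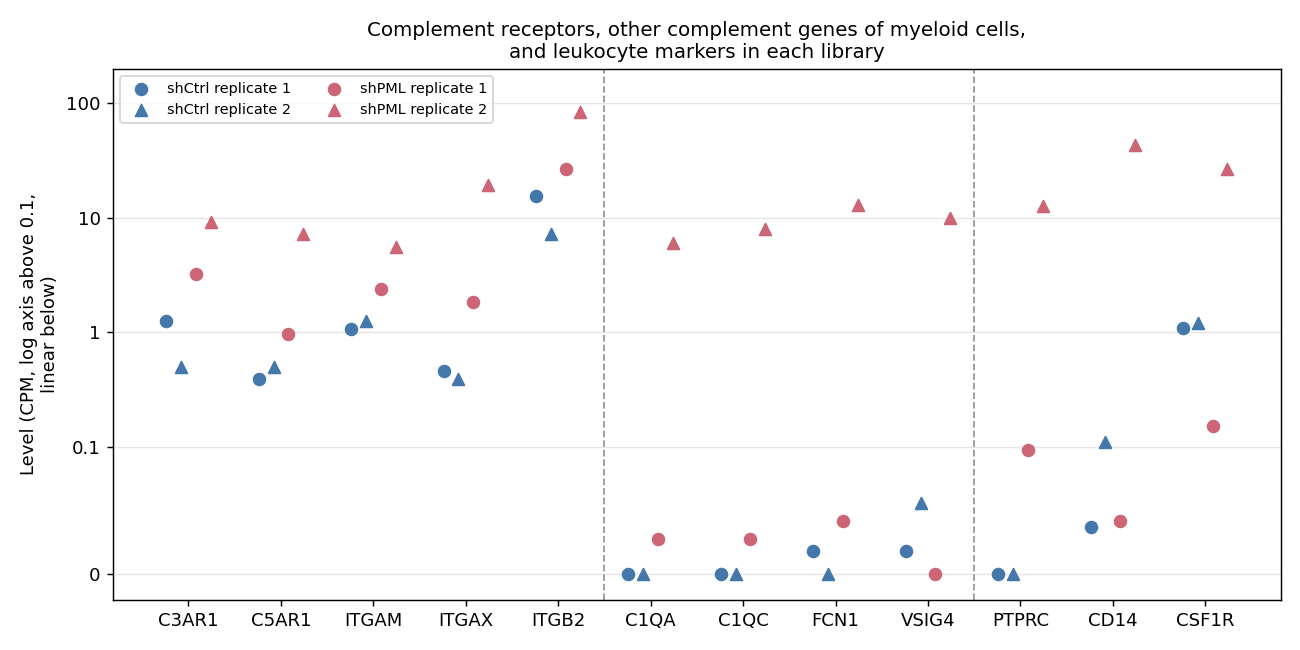
CPM per library, on an axis that is linear near 0 and logarithmic above, of the complement receptor genes C3AR1, C5AR1, ITGAM, ITGAX and ITGB2, of C1QA, C1QC, FCN1 and VSIG4, and of the leukocyte markers PTPRC, CD14 and CSF1R. The 5 receptor genes are higher in both shPML libraries than in shCtrl, and the other 7 genes are far higher in shPML replicate 2 than in the other libraries.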

How the data were processed

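RNA of RCC4 cells was measured in 4 libraries, 2 shCtrl and 2 shPML. The authors made stranded mRNA libraries, trimmed single-end reads with Trimmomatic 0.39, aligned them to GRCh38 with STAR and counted them on Gencode genes with featureCounts 1.6.4. The deposited values are raw counts per gene, with the length of each gene's merged exons. The strand setting of the counting and the Gencode release are not given in the sources used here. The deposited column of each condition that carries no number was taken as replicate 1, since the other carries the number 2. The files' coordinates are GRCh38.

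Counts were filtered with filterByExpr of edgeR 4.0.16 (minimum count 10, R 4.3.3), scaled by TMM and tested with edgeR's quasi-likelihood test (glmQLFit and glmQLFTest) with Benjamini-Hochberg adjustment, with the experiment as a block. Calls needed an adjusted p below 0.05 and a log2 fold change larger than 0.5 in size, the thresholds in the study's methods. The methods describe 2 experiments with separate infections but do not tie the replicate numbers to them. Libraries with the same number were taken as the same experiment. The deviations of same-numbered libraries correlated at 0.546, and the experiment carried 44.9% of the variance against 41.8% for the condition. With 2 experiments the own spread of a gene counts for little. The edgeR p-values with the block therefore rest mostly on a spread shared across all genes (prior degrees of freedom 57.6). CPM uses the TMM-scaled library size, and TPM uses the deposited exon length. Ratios within a replicate have exact 95% intervals from the counts. The fits were tested on simulated data. Alternatives were no block, DESeq2 1.42.0 with and without the block, RLE, other filters and fold thresholds, and leaving out each library. Figures and tables were made with Python 3.11.15 and pandas 2.3.3.

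The members and all lists were chosen with earlier results of these data known. Genes named were the members, PML, the listed complement genes that were called or were the 5 most abundant tested ones per length, the 3 genes most like each called member, and genes whose exons overlap a member, and a few genes that these rules or lists hold are not reported here. Genes of cell type markers and promoters with motifs come from fixed lists and from RefSeq windows. The receptor and marker genes of shPML replicate 2 that were not tested, and the named transcription factors, were chosen after their values were seen. C4A was named because it passed the filter through shPML alone.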

Additional observations from a re-analysis of the deposited data

How the results depend on the processing

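Without the replicate block, edgeR called 13 genes higher and 55 lower in place of 1415 and 1735, and 0 members, 0 of the other complement genes and 0 of the transcription factors in either direction. The log2 fold changes were then 1.29 for C1R, 1.14 for C1S and 0.78 for C3, and that of SERPING1, which was not called in either fit, went from 0.23 to 0.43. DESeq2 without the block called 578 genes higher and 894 lower, with 3 members higher. It also called 6 other complement genes higher and 1 lower, and 2 transcription factors higher and 1 lower. With no threshold on the log2 fold change 2391 genes, 4 members and 6 transcription factors were higher. Beyond a log2 fold change of 1 there were 550 genes higher and 646 lower, with 2 members and 0 transcription factors higher. With no filter on low counts 11 other complement genes were higher. DESeq2 with the block, and a minimum of 10 counts in every library, called 0 of those genes lower. C1R, C1S and C3 were called in all settings with the block that keep the threshold of 0.5, and under RLE scaling the median log2 fold change of all genes was 0.017.

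Leaving out 1 library with the block leaves no residual degrees of freedom, so it gives the ratio within the other experiment and no test. In replicate 2 alone, 5 members had a log2 ratio over 0.5 (chosen after seeing the data), and CFB reached 3.39. Without the block, leaving out each library in turn gave from 0 to 187 genes higher and from 0 to 61 lower, 0 members, from 0 to 7 other complement genes higher and 0 lower, and 0 transcription factors in either direction. The lone library is then assumed to vary like the others. The difference of medians between activating genes and inhibitors ran from 0.84 to 1.37 (0.85 without shPML replicate 1) and was 1.30 in replicate 1 alone. The log2 fold change ran from 1.26 to 1.31 for C1R, from 0.89 to 1.45 for C1S and from 0.51 to 1.11 for C3, the lowest C3 value without shCtrl replicate 2. That of SERPING1 was -0.58 without shPML replicate 2 and that of CD59 was -0.024 without shPML replicate 1, both reversed. The cause was not tested. CFB, CFI, SERPING1, CR1 and C4BPB rest on under 100 reads a library, which limits what could be detected in them.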
